A study of Drosophila melanogaster with 2 samples.

Results

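The proteasome subunit genes of Drosophila melanogaster were examined for binding of dsf-eGFP, in which the nuclear receptor encoded by dsf (dissatisfaction) carries a green fluorescent tag. The members are the protein-coding genes whose symbol starts with Rpn, Rpt, Prosalpha or Prosbeta, and 48 of 13945 protein-coding genes on the nuclear chromosome arms met that rule. Of these, 32 are the somatic subunits, with 8 genes of the lid, 10 of the base and 14 of the core particle. The other 16 are paralogs, of which 4 carry a T (testis) and 12 an R (related) after the subunit's name. The rule uses symbols only and no binding value.

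Binding was mapped by chromatin immunoprecipitation and sequencing (ChIP-seq) with an antibody against the tag, on sonicated chromatin. All samples were dsf-GFP animals, a transgenic line that stably makes dsf with the tag at its C terminus. They were whole larvae of the third instar, at the wandering stage, with males and females pooled and the age given as unknown. The 2 biological replicates, numbered 3 and 4, form 1 group, and a possible control experiment named in the labels was not analysed here. The labels do not give the promoter that drives the fusion, and signal from all larval tissues is mixed in each sample.

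The proteasome degrades proteins that carry ubiquitin chains. Its barrel-shaped core particle is built of rings of alpha subunits, which gate the entrance, and rings of beta subunits, which hold the protease sites. The regulatory particle that caps the barrel has a base, with a ring of Rpt ATPases that unfolds substrates, and a lid, where the deubiquitinase Rpn11 removes the chains. In Drosophila, paralogs with a T are known for expression in the male germline, where they take the place of the somatic subunit.

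Each region was deposited with a signal value, by which it was ranked, and with a summit, the position of its highest signal. The short list kept by the irreproducible discovery rate (IDR) procedure, which is meant to retain regions that replicates rank alike, held 1731 regions with signal values of 73.5 to 2175.1. These are the 1731 strongest regions of a pooled list of 29999. Replicate 3 and replicate 4 each had a list of 29999 regions as well, background included, with signal values of 9.2 to 384.1 and 8.9 to 2003.3. On the nuclear arms the highest value was 778.9 in the short and pooled lists, 384.1 in replicate 3 and 419.8 in replicate 4. Ranks count all regions of a list, and 1708 of the 1731 in the short list were on the nuclear arms. Each list has its own scale, so signal values were not averaged over replicates. A gene was called bound when an IDR-thresholded summit fell no more than 1 kb from a transcription start site (TSS) of that gene, which is a statement about position only. The files hold no read counts, so the depth is unknown.

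In the IDR-thresholded list, 4 of the 5 bound proteasome genes were lid genes. Of the 8 somatic lid genes, 4 (50%) were bound, namely Rpn3, Rpn5, Rpn6 and Rpn12. Of the 10 base genes, 1 (10%) was bound, the ubiquitin receptor gene Rpn13. None of the 14 core particle genes and none of the 16 paralogs was bound. Prosalpha1 and Prosalpha1R are counted here and in the other lists as without a region, although the DNA around them is repeated in the genome. Over all members, 5 of 48 (10.4%) were bound, close to the 12.2% of all protein-coding genes. Among somatic subunits the share was 15.6%. The counts are small and rest on a cut in rank. The strongest 1731 regions of replicate 4 alone held 7 members (3 lid, 2 base and 2 core genes), 14.6% against 12.6% of all genes. Those of replicate 3 alone held 4 (2 lid, 2 base and 0 core genes), 8.33% against 11.5% of all genes. In neither replicate alone were most of these members lid genes.

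In the longer lists the somatic subunits and their paralogs lay far apart. The pooled list placed a summit in the 1 kb window at 13 of 32 somatic subunits (40.6%) and at 0 of 16 paralogs, against 49.2% of all protein-coding genes. Replicate 3 had one at 9 somatic subunits (28.1%) and 1 paralog (6.25%), against 47.1% of all genes. Replicate 4 had one at 25 somatic subunits (78.1%) and 1 paralog (6.25%), against 54.6% of all genes. The somatic share therefore lay below the share of all genes in the pooled list and in replicate 3, and above it in replicate 4. The paralog share lay below it in all 3.

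**Figure D1:**
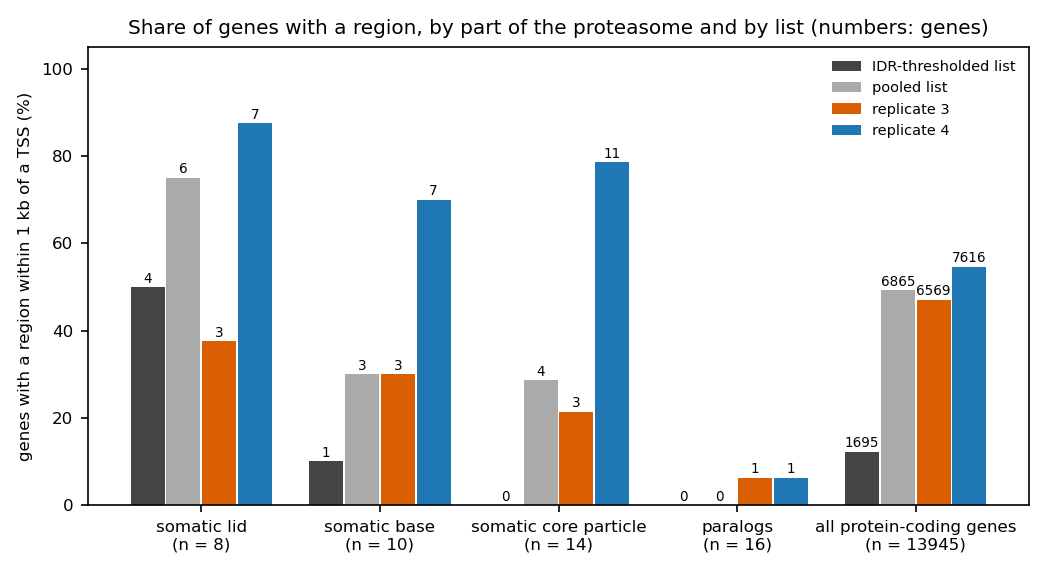
Bars give the percentage of genes (y axis) with a region whose summit lies within 1 kb of a TSS, for the somatic lid, base and core particle, the paralogs and all protein-coding genes (x axis), in each of 4 lists, with the number of genes above each bar. The replicate 4 bars of the lid, base and core particle reach 87.5%, 70% and 78.6%, while the replicate 3 bars stay at 37.5%, 30% and 21.4%.

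Where a somatic subunit had a region, its rank differed between the parts of the proteasome. The strongest region near a member ranked a median 2224 in the pooled list (13 members, 246 to 27890), against a median 5149 over the protein-coding genes with a region. The lid genes came first, with a median of 832 over 6 genes, followed by the base with 2358 over 3 genes and the core particle with 6712 over 4 genes. The same order of lid, base and core particle held in replicate 4, with medians of 1975, 3479 and 7110 over 7, 7 and 11 genes, and in replicate 3, with medians of 525, 1581 and 6863 over 3 genes each. Over all somatic subunits with a region the median was 1838 in replicate 3 and 3479 in replicate 4, against 6081 and 4976.5 over all genes with one. These medians leave out every gene without a region.

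**Figure D2:**
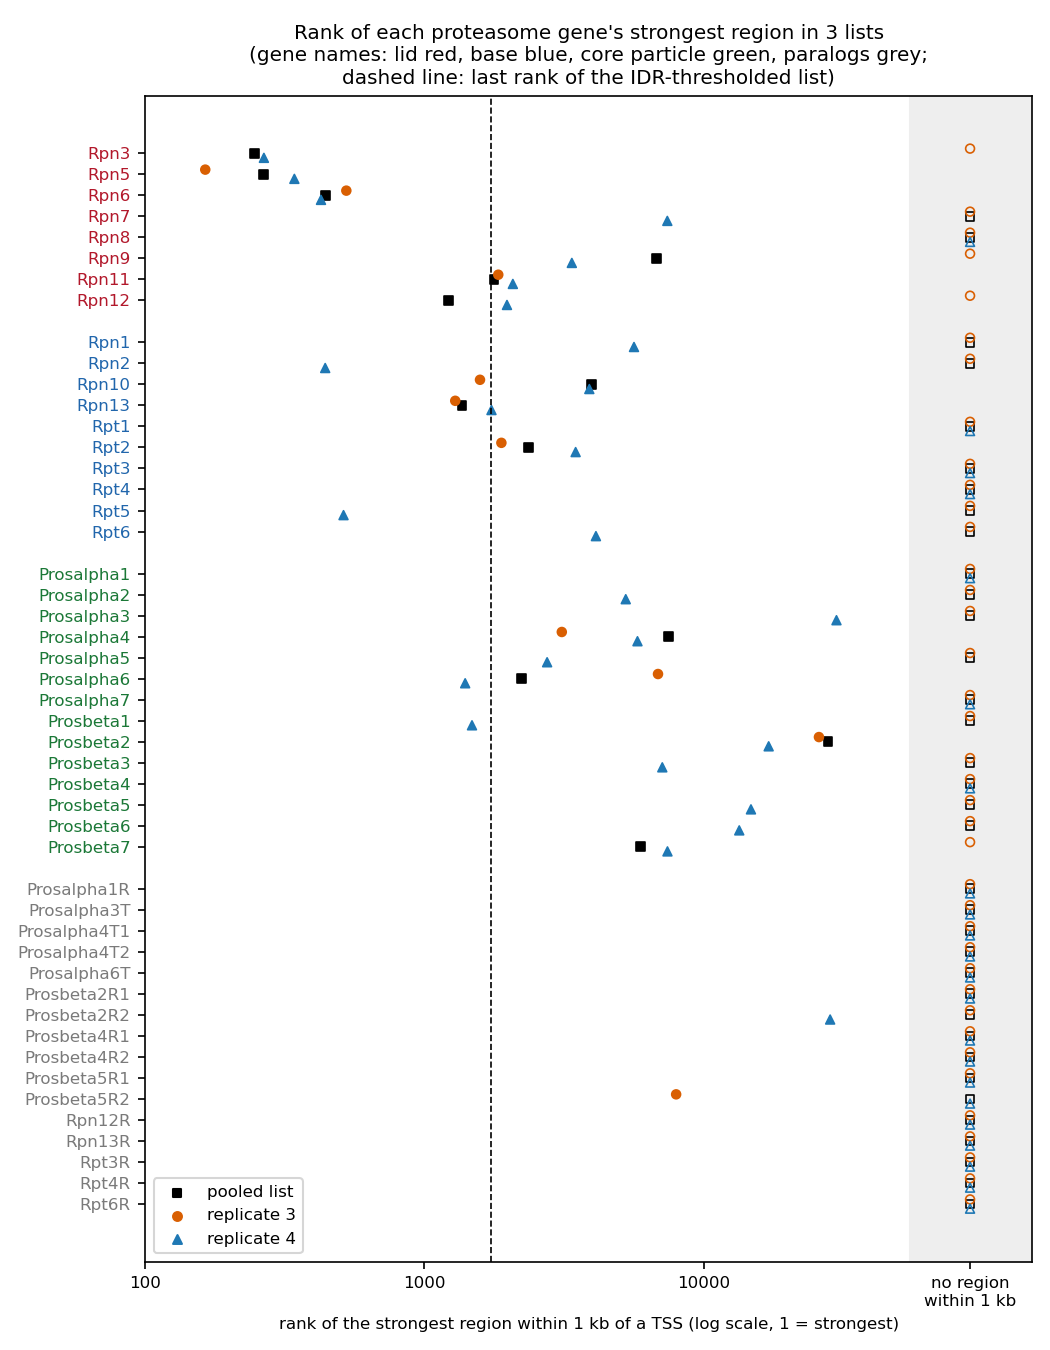
Each row is a member gene, and the x axis gives the rank of its strongest region within 1 kb of a TSS on a log scale, in the pooled list (squares), replicate 3 (circles) and replicate 4 (triangles), with open symbols at the right where the list had no region there. Rpn3, Rpn5 and Rpn6 lie at ranks of 164 to 525 in every list that has them, and nearly all paralog symbols sit in the band without a region.

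Rpn3, a structural lid subunit with a PCI domain, had the strongest region of all members. The gene (FBgn0261396) lies at 2L 19051790 to 19053681 on the plus strand, and the region at 2L 19051574 to 19051977. Its summit was 14 bp upstream of the TSS, in intergenic sequence, with a signal value of 182.0, a −log10 q of 3.24 and rank 246. Replicate 4 placed a summit 23 bp from there, at rank 266 with a signal value of 104.8. Replicate 3 had no summit nearby, the closest being 20128 bp away at rank 18960. The strongest proteasome region was thus listed in 1 of the 2 replicates. Its pooled signal value was 1.74 times that of replicate 4. Over nuclear IDR-thresholded regions matched in both replicates the median ratio was 1.73 (10th to 90th percentile 1.44 to 2.2). For those matched in replicate 4 with no replicate 3 summit within 1 kb it was 1.71 (1.41 to 2.07). Whether replicate 3 holds signal at Rpn3 was not tested.

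Rpn5, another PCI scaffold subunit of the lid, carried a pair of IDR-thresholded regions. The gene (FBgn0028690) lies at 3R 5789493 to 5791569 on the plus strand. The stronger region, 3R 5788953 to 5789356, had a signal value of 178.4 and rank 266, and its neighbour, 3R 5789158 to 5789561, had 160.2 and rank 351. Their summits lay 338 bp and 133 bp upstream of the Rpn5 TSS. The stronger summit was in an intron of Hat1, the gene of a histone acetyltransferase, and 81 bp from a Hat1 TSS. By the nearest TSS neither region goes to Rpn5, so proximity alone assigns both to the neighbour. Replicate 4 had both regions, at ranks 342 and 567 with signal values of 96.0 and 78.9. Replicate 3 had a single region at rank 164 with a signal value of 89.5, its summit 176 bp upstream of Rpn5 and 162 bp from the stronger IDR-thresholded summit. This replicate 3 summit was also nearer Hat1, 67 bp from a TSS.

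Rpn12, a lid subunit with a PCI domain that in yeast joins last when the lid is built, was bound further down the list. The gene (FBgn0028693) lies at 3L 16583028 to 16584022 on the plus strand, and the region at 3L 16582590 to 16582993, with the summit 236 bp upstream of the TSS in intergenic sequence. Its signal value was 88.1, its −log10 q 2.43 and its rank 1223. Replicate 4 had a summit 10 bp away at rank 1975 with a signal value of 44.4. In replicate 3 the nearest summit was 1229 bp away at rank 2077, outside the window. As at Rpn3, the replicates did not both place a summit there. The pooled signal value was 1.98 times that of replicate 4.

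The bases at these summits are shown so that the bound promoters can be read beside those of the genes with a region in replicate 4 only. They are taken from the release 6 (dm6) genome sequence, within 50 bp of the summit and without annotated exon bases, 5′ to 3′ on the gene's strand. Capitals mark matches to the motifs searched, TATCGA at Rpn12 and Rpn2 and, at Rpt5, the reverse complement of AAGTCA. The Rpn3 stretch is chr2L:19051726-19051789 (plus), Rpn5 chr3R:5789105-5789205 (plus) and Rpn12 chr3L:16582768-16582842 (plus). Rpn2 is chr3R:29153396-29153496 (plus) and Rpt5 chr3R:23752835-23752875 (plus), both at replicate 4 summits. Rpn11, the member with the strongest pooled region outside the short list, is chr2L:5059897-5059997 (minus). The stretches from Rpn3, Rpn5 and Rpn11 held none of the motifs.
Rpn3: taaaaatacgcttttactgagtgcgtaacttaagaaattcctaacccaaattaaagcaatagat
Rpn5: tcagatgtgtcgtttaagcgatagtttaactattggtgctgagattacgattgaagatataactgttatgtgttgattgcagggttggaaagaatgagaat
Rpn12: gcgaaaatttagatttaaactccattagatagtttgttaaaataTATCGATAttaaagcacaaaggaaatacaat
Rpn2: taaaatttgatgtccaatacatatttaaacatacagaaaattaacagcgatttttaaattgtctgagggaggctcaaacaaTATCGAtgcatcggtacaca
Rpt5: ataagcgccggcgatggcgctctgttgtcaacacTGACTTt
Rpn11: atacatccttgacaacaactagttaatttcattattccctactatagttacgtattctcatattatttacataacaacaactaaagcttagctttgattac

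Rpn6, the lid scaffold known as a clamp between the regulatory and the core particle, was bound in both replicates. The gene (FBgn0028689) lies at 2R 14750166 to 14752910 on the minus strand, and the region at 2R 14752171 to 14752574. Its summit was 102 bp upstream of the nearer of its 2 TSS and inside a Rpn6 intron, with a signal value of 143.0 and rank 441. Replicate 3 had a summit 23 bp away at rank 525 with a signal value of 55.0. Replicate 4 had one 10 bp away at rank 426 with a signal value of 87.8. Among the bound members it showed, with Rpn13, the closest placement across the lists.

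Rpn13, which receives ubiquitin chains on the base and, in humans, docks a deubiquitinase there, had the weakest of the IDR-thresholded regions. The gene (FBgn0033886) lies at 2R 13958545 to 13960404 on the minus strand, and the region at 2R 13960278 to 13960681, with its summit 76 bp upstream of a TSS. Its signal value was 83.6, its −log10 q 2.32 and its rank 1362. Replicate 3 had a summit 13 bp away at rank 1289 with a signal value of 34.9, and replicate 4 had one 3 bp away at rank 1738 with 47.1. By rank it fell inside the strongest 1731 of replicate 3 and just outside those of replicate 4.

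The gene next in rank missed the short list narrowly. Rpn11, the deubiquitinase of the lid, had a pooled region at rank 1774 with a signal value of 72.6. This was just under the lowest signal value of 73.5 in the short list. Rpn13, the lowest-ranked bound member, had 83.6 at rank 1362. The Rpn11 region was thus the nearer of the 2 to the cut. The Rpn11 summit was 157 bp upstream of the TSS. Replicate 3 ranked a Rpn11 region 1838 with a signal value of 29.2, and replicate 4 ranked one 2073 with 43.3. Whether Rpn11 counts as bound is thus a matter of the cut.

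The remaining lid genes were weaker or without a region. Rpn9, a PCI scaffold subunit, had a pooled rank of 6798 and a signal value of 35.5, with rank 3372 in replicate 4 and no region in replicate 3. Rpn7, another PCI scaffold subunit, had only a replicate 4 region, at rank 7411 with a signal value of 22.3. Rpn8, the catalytically inactive partner of Rpn11, was the one lid gene with no region in either replicate or in the pooled list.

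At the base, the 4 genes that encode no ATPase (Rpn1, Rpn2, Rpn10 and Rpn13) all had a replicate 4 region. Of the 6 ATPase genes 3 (50%) did, near the 54.6% of all protein-coding genes. The counts are too small to separate the 2 kinds of gene. Besides Rpn13, the pooled list had a region at Rpt2 and Rpn10 only. Rpt2, the ATPase whose tail is known in yeast to open the core particle's gate, had pooled rank 2358 with a signal value of 61.9, rank 1886 in replicate 3 (28.9) and rank 3479 in replicate 4 (33.6). Rpn10, a ubiquitin receptor, had pooled rank 3967 with a signal value of 47, rank 1581 in replicate 3 (31.6) and rank 3895 in replicate 4 (31.7). These Rpn10 summits lay 234 bp upstream, 260 bp upstream and 4 bp downstream of a TSS, so the replicate 4 summit was at another place. Among the ATPase genes, Rpt2, Rpt5 and Rpt6 had a region in replicate 4, Rpt2 alone had one in replicate 3, and Rpt1, Rpt3 and Rpt4 had none in any list. The weakest base gene with a region was Rpn1, a scaffold that in yeast docks ubiquitin-handling factors, at rank 5630 in replicate 4 with a signal value of 26.

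At the core particle, 11 of 14 genes (78.6%) had a replicate 4 region, against 54.6% of all protein-coding genes, but most were low in rank. The 11 genes with a replicate 4 region had ranks of 1399, at Prosalpha6, to 29906, at Prosalpha3. Prosalpha6, of the alpha ring, was the strongest in the pooled list, at rank 2224 with a signal value of 64.4 and a summit 151 bp upstream of its TSS. Its strongest replicate 4 region ranked 1399 with a signal value of 51.9, with the summit 283 bp upstream. Its strongest replicate 3 region ranked 6863 with a signal value of 16.9, with the summit at another place, 741 bp upstream, and the replicate 3 region nearest the pooled summit, 153 bp upstream, ranked 12124 with 13.7. Prosbeta7, of the beta ring, followed at pooled rank 5931 (38.0) with rank 7420 in replicate 4 and no region in replicate 3. Prosalpha4 came next at pooled rank 7493 (33.8), with ranks 3104 in replicate 3 and 5794 in replicate 4. Its pooled and replicate 3 summits lay 323 and 275 bp upstream, but that replicate 4 summit lay 850 bp upstream. A second replicate 4 region, 5 bp upstream, ranked 21838. Prosbeta2, which holds the trypsin-like site, was the weakest with a pooled region, at rank 27890 with a signal value of 17.0. It ranked 25881 in replicate 3, 382 bp upstream like the pooled summit, and 17096 in replicate 4, 30 bp upstream. The rings did not separate in number, since 5 of 7 alpha genes (71.4%) and 6 of 7 beta genes (85.7%) had a replicate 4 region. Prosalpha1, Prosalpha7 and Prosbeta4 had none in either replicate.

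The genes of the protease sites were not marked out in the core particle. Prosbeta1, which holds the caspase-like site, had a replicate 4 region at rank 1480 with a signal value of 50.6. Its summit was 74 bp from the Prosbeta1 TSS but 47 bp from a TSS of the neighbour Rrp42. Prosbeta5, which holds the chymotrypsin-like site, had one at rank 14773 with a signal value of 14.9. That summit was 84 bp from the Prosbeta5 TSS but 10 bp from a TSS of the neighbour dgo. Neither gene had a region in replicate 3 or in the pooled list.

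The paralogs were nearly empty in every list. Of 16 genes, 14 had no region within 1 kb of a TSS in the pooled list or in either replicate, all 4 with a T among them. Of all 13945 protein-coding genes, 4855 had no region in either replicate. The 4 genes with a T are too few to read as a share. Prosbeta2R2 had a replicate 4 region 401 bp downstream of its TSS at rank 28385 with a signal value of 9.4, near the end of that list. Prosbeta5R2 had a replicate 3 region 937 bp upstream at rank 7970 with a signal value of 16.0. In neither case did the other replicate have one. The larvae were whole animals of both sexes, and how much chromatin came from the male germline was not measured.

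The absence of regions at paralogs was set against how alike the proteins and the DNA are. Over the 16 pairs, protein identity with the somatic subunit was a median 60.1% (37.3% to 100%), from 37.3% for Rpn13R to 88.7% for Rpt6R and 100% for Prosalpha1R. Around Prosalpha1 and Prosalpha1R, every 50-base stretch within 1 kb of a TSS (100%) occurs more than once in the genome. A read of that length could not be placed at 1 of the copies, so missing signal and unplaced reads cannot be told apart at this pair, which is included in the counts of genes without a region. Over the other 46 members the repeated share was at most 3.38%, at Rpn3.

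The replicates differed most over the somatic subunits seen in replicate 4 alone. Of 25 somatic subunits with a replicate 4 region, 16 had none in replicate 3, while for all protein-coding genes this share was 33.1%. In the other direction, 0 of 9 somatic subunits with a replicate 3 region lacked one in replicate 4, against 22.4% of all genes. Of the 25, 12 had no pooled region, against 19.8% of all genes. The somatic subunits with a replicate 3 region were thus all among those with a replicate 4 region.

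The difference reached into the strong regions. In replicate 4, 7 somatic subunits were near its 1731 strongest regions, against 12.6% of all genes, and in replicate 3 there were 4, against 11.5% of all genes. These shares among the 32 somatic subunits were 21.9% and 12.5%. Of the 7 in replicate 4, 4 had no replicate 3 region at all (Rpn3, Rpn2, Rpt5 and Prosbeta1), against 19.1% of all genes with such a strong region. Of the 7, 3 also had no pooled region (Rpn2, Rpt5 and Prosbeta1), against 10.7% of all such genes. Why replicate 3 lacked these regions was not tested.

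The 3 genes with a strong replicate 4 region and no pooled region are described first. The other 9 somatic subunits with a replicate 4 region and no pooled region ranked lower, from 2750 at Prosalpha5 to 29906 at Prosalpha3. Rpn2, the other large scaffold of the base, had a replicate 4 region at rank 441 with a signal value of 87.0, its summit 78 bp upstream of the TSS. The nearest summit was 4557 bp away in the pooled list and 4563 bp away in replicate 3. Rpt5, an ATPase, had a replicate 4 region at rank 513 with a signal value of 81.8, its summit 10 bp upstream of the TSS. The nearest summit there was 5180 bp away in the pooled list and 5176 bp away in replicate 3. At Prosbeta1, whose replicate 4 summit was nearer a TSS of Rrp42, those distances were 3293 bp and 22356 bp. All 3 genes were inside the strongest 1731 of replicate 4, and none had a listed pooled region nearby. The pooled list reached down to a signal value of 16.2 on its own scale. Why it lacked regions at these 3 genes was not tested.

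**Figure D3:**
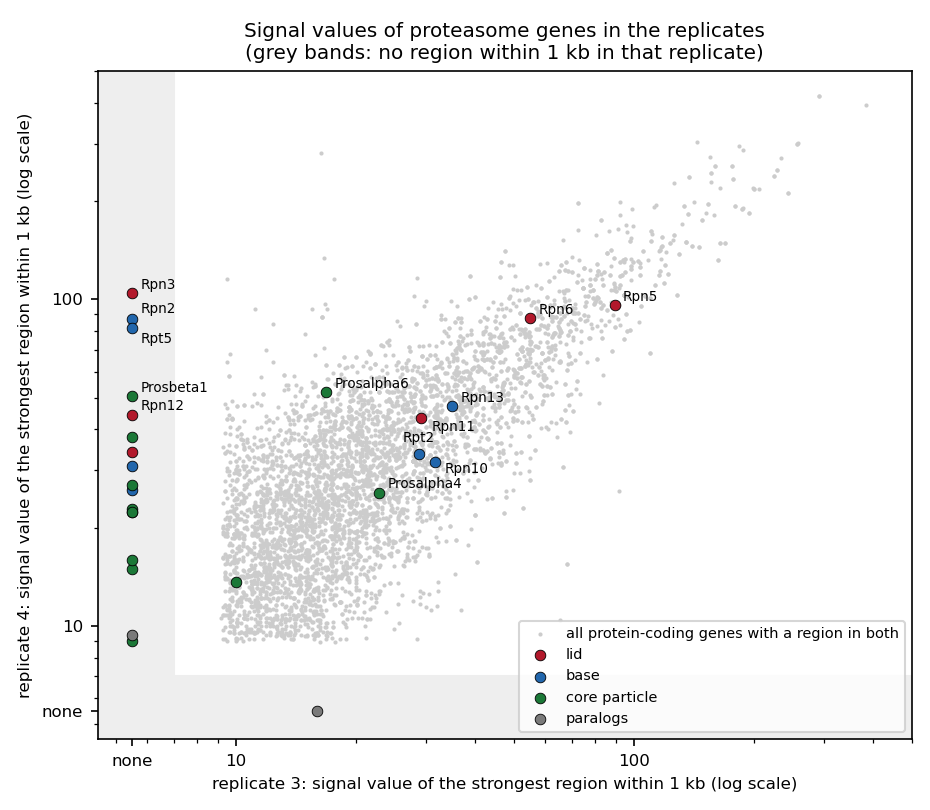
Each point is a gene, placed by the signal value of its strongest region within 1 kb of a TSS in replicate 3 (x axis) and replicate 4 (y axis), both on log scales, with members coloured by their place in the proteasome and all protein-coding genes with a region in both replicates in grey. Members in the left band had a replicate 4 region but no replicate 3 region, with Rpn3 at 104.8, Rpn2 at 87.0 and Rpt5 at 81.8 at its top.

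Regions of the same kind occurred across the genome. Of the 1709 strongest nuclear regions of replicate 4, 225 (13.2%) had no replicate 3 summit within 1 kb and 107 (6.26%) had none in the pooled list. Of the 1710 strongest nuclear regions of replicate 3, 25 (1.46%) had no replicate 4 summit within 1 kb and 29 (1.70%) had none in the pooled list. The gap was therefore wider in the direction of replicate 4 for the genome as well.

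Most member summits lay just upstream of a TSS. In replicate 4, 22 of 25 somatic subunits (88.0%) had their strongest summit upstream, and the median position was −85 bp (negative upstream), against 75.6% and −131 bp for all genes with a region. In the pooled list it was upstream at 12 of 13 (92.3%), with a median position of −151 bp, against 74.5% and −147 bp. The exception in the pooled list was Rpt2, whose summit was 53 bp downstream.

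**Figure D4:**
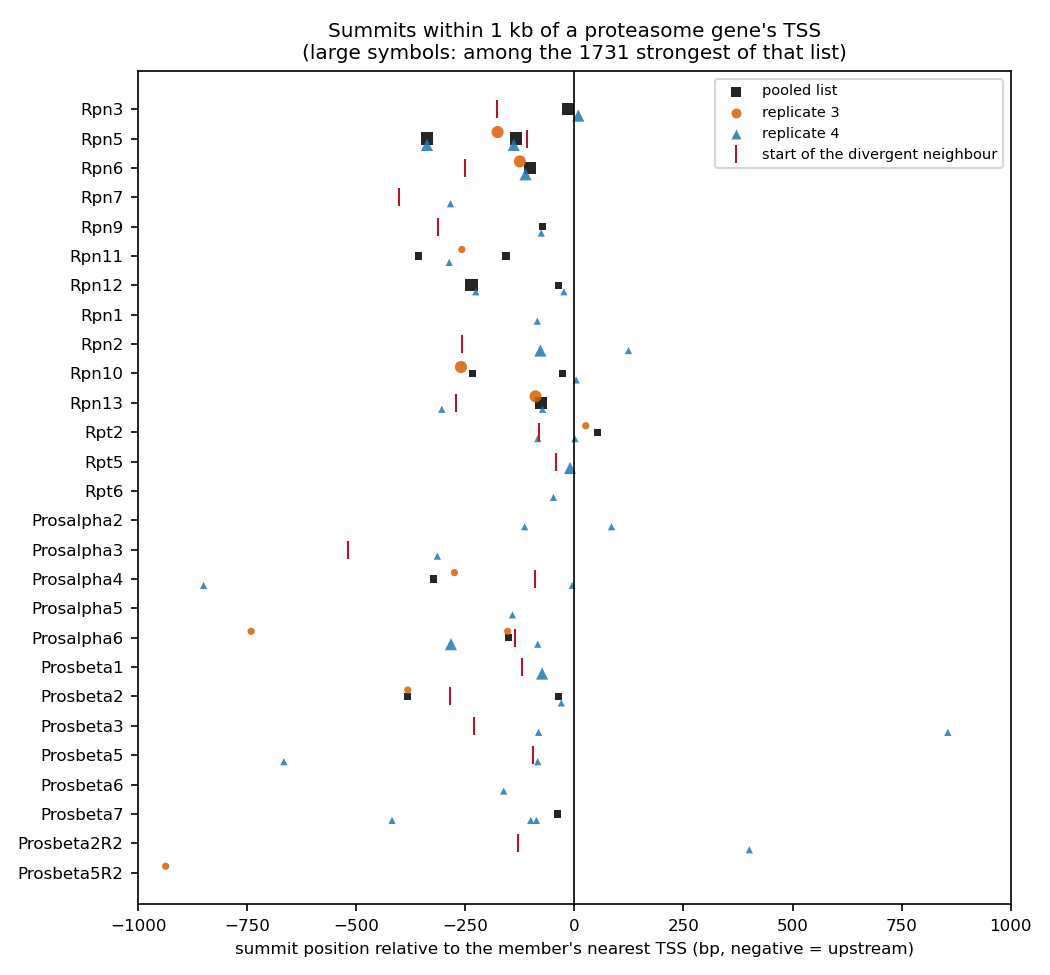
Summits of the pooled list (squares), replicate 3 (circles) and replicate 4 (triangles) are plotted for each member with a region, by distance from the member's nearest TSS in bp (x axis, negative upstream), with large symbols for the 1731 strongest of a list and red ticks for the start of a divergent neighbour. Most symbols lie between the member's TSS and 400 bp upstream, and at Rpn5, Prosalpha4, Prosalpha6 and Prosbeta2 the pooled summits include some beyond the neighbour's start.

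Many of these promoters are shared, so a summit cannot always be given to the proteasome gene. A protein-coding neighbour on the other strand started within 1 kb upstream at 22 of 32 somatic subunits (68.8%) and at 4 of 16 paralogs (25%), against 36.2% of all protein-coding genes. The gap between the starts at the somatic subunits was 42 to 519 bp, with a median of 240 bp. Among bound genes it was 178 bp at Rpn3 (l(2)37Bb), 109 bp at Rpn5 (Hat1), 250 bp at Rpn6 (ave) and 271 bp at Rpn13 (CtsL1). The nearest protein-coding TSS belonged to the member itself for 9 of 13 somatic subunits in the pooled list, 5 of 9 in replicate 3 and 18 of 25 in replicate 4. The replicate 3 count includes Rpn6, whose summit was equally near, at 125 bp, to a TSS of ave. In the pooled list the exceptions were Rpn5 (Hat1 nearer), Prosalpha4 (kat80, a katanin subunit gene), Prosalpha6 (Npc1a, a cholesterol transport gene) and Prosbeta2 (mRpL39, a mitochondrial ribosomal protein gene). In replicate 4 they were Rpn5 (Hat1), Rpn7 (AP-2mu), Prosalpha3 (dgt3), Prosalpha4 (kat80), Prosalpha6 (Npc1a), Prosbeta1 (Rrp42) and Prosbeta5 (dgo).

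The somatic subunits were therefore also read within each class of promoter. Of the 22 with a divergent neighbour, 4 (18.2%) were bound, against 23.3% of all genes with one. Of the 10 without, 1 (10%) was bound, against 5.82%. In replicate 4, 16 of 22 (72.7%) and 9 of 10 (90%) had a region, against 69.2% and 46.3% of all genes of the same classes. In replicate 3, 7 of 22 (31.8%) and 2 of 10 (20%) had one, against 50.6% and 45.1%. In replicate 3 the somatic share was below that of all genes in both classes. In replicate 4 it was above that of all genes without a divergent neighbour and close to that of all genes with one.

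Promoter letters were compared with those of all genes, from 250 bases before to 50 after the outermost TSS, on both strands. TATCGA, part of the element that the factor DREF binds, was in 20 of 32 somatic promoters (62.5%) and 4 of 16 paralog promoters (25%), against 27.7% of all promoters. It was in 5 lid, 8 base and 7 core particle promoters. AAGTCA, the half-site known for the tailless group of nuclear receptors to which dsf belongs, was in 7 somatic promoters (21.9%) and 1 paralog promoter, against 16.2% of all. It was in 0 lid, 5 base and 2 core particle promoters. At the 5 bound summits, within 50 bp, AAGTCA was found at 1 (Rpn13), against 5.27% of all 1708 nuclear IDR-thresholded summits, and TATCGA at 2 (Rpn6 and Rpn12), against 10.1%. A match describes the letters and is not evidence of a site.

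The other motifs were each in at most 13 of the 32 somatic promoters. TATAAA, the TATA box, was in 13 somatic promoters (40.6%), against 45.8%, and at 1 of the 5 summits (Rpn6), against 23.0%. TGACNNNGC, the antioxidant response element bound by cnc with its Maf partner, was in 5 (15.6%), against 8.63%. GGTCACACT, the Motif 1 element of housekeeping promoters, was in 5 (15.6%), against 6.05%. CACGTG, the E-box, was in 0, against 4.20%. None of these last 3 was within 50 bp of the 5 bound summits, where 2.11%, 0.644% and 1.11% of all summits had them.

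Regions in replicate 4 were counted by the presence of TATCGA. With the motif, 17 of 20 somatic promoters (85.0%) had a replicate 4 region, against 66.9% of all promoters with it. Without it, 8 of 12 (66.7%) had one, against 49.9%. For bound genes the somatic counts were 3 of 20 (15.0%) with the motif and 2 of 12 (16.7%) without, against 17.9% and 9.95% of all genes. In replicate 3 they were 5 of 20 (25%) and 4 of 12 (33.3%), against 48.7% and 46.5%.

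The rest of the ubiquitin-proteasome system was read from a list of 24 genes that act beside the proteasome. Of these, 6 (25%) were bound, against 12.2% of all protein-coding genes, and 19 had a region in the pooled list, 17 in replicate 3 and 23 in replicate 4, against 49.2%, 47.1% and 54.6% of all genes in the same lists. As shares of the 24 genes these counts were 79.2%, 70.8% and 95.8%. The list was compiled by hand and is described here by its counts alone. Shared promoters and nearest TSS were not examined for these genes, so a summit may belong to a neighbour.

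The bound genes of that list included regulators of proteasome gene expression. Keap1, the adaptor that marks cnc for degradation, had the strongest region, at rank 404 with a signal value of 149.8, its summit 2 bp upstream of a TSS, and ranks of 507 in replicate 3 and 318 in replicate 4. The gene cnc, which encodes the transcription factor known to induce proteasome genes under stress, ranked 772 (111.5, 320 bp downstream of a TSS), with 1205 in replicate 3 and 636 in replicate 4. Pomp, the core particle's assembly chaperone, ranked 894 (102.6), with 1248 and 738 in replicates 3 and 4. Unlike Rpn3 and Rpn12, all of these genes had a region in both replicates.

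The others supply ubiquitin or use it. RpS27A, a ubiquitin fusion gene, ranked 1278 with a signal value of 85.9, and 1740 in replicate 3 and 1246 in replicate 4. The gene Ip259 had the same ranks in both replicates. The gene ntc, whose F-box protein is needed for caspase activation in sperm maturation, ranked 1471 (79.9), and 1009 and 2379. Ubi-p63E, a polyubiquitin gene, ranked 1545 (77.9), and 1465 and 2110. Sem1, a small lid subunit whose symbol does not follow the naming rule, was not bound, with pooled rank 6022, and 1896 and 7188 in replicates 3 and 4. Uch-L5, the deubiquitinase that docks on Rpn13 in humans, had only a replicate 4 region, at rank 6255, and p47, a cofactor of the TER94 segregase, was the one listed gene without a region in any list.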

How the data were processed

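Peak lists on dm6 from 2 biological replicates of 1 group, and lists made from both, were used. Per the deposited file descriptions, each replicate's list holds peaks and background as input for IDR, and the pooled list derives from both replicates' alignments and 1 further file. The signal value of each region was deposited by the authors on an unstated scale, and the authors also deposited the −log10 of a q-value. Not given in the sources used here were the aligner, peak caller, duplicate handling and control normalisation. Depth is unknown, so no value has a depth-based error.

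Regions were ranked by signal value within each list (pandas 2.3.3, numpy 2.4.6, Python 3.11.15). A summit was assigned to every protein-coding gene with a TSS within 1 kb (Ensembl release 115, in dm6 coordinates). The assignment was checked on simulated data. Paralog proteins, translated from Ensembl coding sequences, were aligned globally with Biopython 1.88 (BLOSUM62, gap opening 10, extension 0.5), with identity per residue of the shorter protein. With 1 group and no control sample nothing was tested, and counts are set beside those of all protein-coding genes. Named are every bound member, the strongest and weakest unbound genes of each group, and every bound gene of the ubiquitin-proteasome list, with a few others chosen after their values were seen. The members and lists were chosen with earlier results of these data known. Alternatives were other windows, TSS sets, overlap, nearest TSS, thresholds and each replicate alone. Lists on dm3 were not used.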

Additional observations from a re-analysis of the deposited data

How the results depend on the processing

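The count of 5 bound members became 2 with the strongest 25% of the IDR-thresholded list (Rpn3 and Rpn5, against 3.36% of all protein-coding genes). It became 9 with the strongest 5000 pooled regions (against 24.3%). It was 4 without replicate 4 (against 11.5%) and 7 without replicate 3 (against 12.6%). Under the other 5 alternatives it lay between 4 and 7, against 8.15% to 14.6% of all genes. The 4 there came from the nearest-TSS rule, which gives the Rpn5 regions to Hat1. The lid count of 4 became 2 with the strongest 25%, and ranged from 2 to 3 with 1 replicate left out. The base count of 1 became 0 with the strongest 25%, 3 with the strongest 5000, and 2 with either replicate left out. The core count of 0 became 1 with a 2 kb window (Prosbeta6) and 1 with the strongest 5000 (Prosalpha6), and ranged from 0 to 2 with 1 replicate left out. Paralogs stayed at 0 under all 9 alternatives. The members' median pooled rank of 2224 became 4949 with a 2 kb window, over 20 members. With 1 replicate left out, ranks came from the list of the other replicate and from other sets of members. Without replicate 4 the median was 1862 over 10 members, and without replicate 3 it was 3687 over 26. The median without replicate 4 was added after seeing the data. Thresholds on rank change how many regions enter, and the cause of the other shifts was not tested. No paired analysis was possible because there is 1 group.

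With 2 replicates, no depth and no control sample analysed here, a missing region cannot be told from one under the listing limit, and binding and background cannot be told apart. Only regions within 1 kb of a TSS were read.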

Other observations

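Promoters of the members had a lower median content of G and C than those of all genes. From 250 bases before to 50 after the outermost TSS, the median GC content was 33.5% for the somatic subunits (23.0% to 47.7%) and 32.7% for the paralogs (23.3% to 50%), against 38.0% for all protein-coding genes. Whether GC content goes with having a region was not tested.

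Members also varied in how many regions lay near them. Rpn2, Rpn12, Rpn13, Rpt2 and Prosbeta7 were among the genes with more than 1 replicate 4 summit within 1 kb. At Rpn12 the pooled list held a second, weaker summit 37 bp upstream of the TSS at rank 8879 (31.1), beside the IDR-thresholded one at 236 bp, and replicate 4 held one 24 bp upstream at rank 9028 (20.1).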
